A study of Homo sapiens with 9 samples.

Results

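SOX17, SOX4, SOX11, GATA4, GATA6 and PRDM1 are 6 transcription factor genes, chosen by name as core regulators of definitive endoderm (SOX17, GATA4, GATA6, PRDM1) and as SOX relatives of SOX17 (SOX4, SOX11). All 6 have a row in a count table of 26240 genes, and all 6 were among the 16837 genes left by the filter on low counts. The libraries are RNA sequencing of definitive endoderm made in culture from H9, an established human embryonic stem cell line, with 3 libraries of each CHD7 genotype. CHD7, a chromatin remodelling enzyme, was left intact (wild type, CHD7+/+), deleted on 1 allele (heterozygous, CHD7+/-) or deleted on both alleles (homozygous, CHD7-/-) with CRISPR/Cas9, and the comparison asks how the loss of CHD7 affects gene expression in these cells. The labels give neither the deleted interval nor the number of clones behind a genotype. No label says that the 3 libraries of a genotype came from separate cultures, so every p-value here speaks to the spread among libraries alone, and that spread could be technical.

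Definitive endoderm is the germ layer that forms gut, liver, pancreas and lung. In culture it is induced from stem cells through the Activin and Nodal pathway, whose receptors act through SMAD2 and SMAD3, and the T-box factor EOMES is an early mediator of that signal. SOX17, a SoxF factor with an HMG-box DNA-binding domain, marks the committed endoderm cell. GATA4 and GATA6 are zinc finger factors that bind GATA motifs and open chromatin at endoderm genes. PRDM1, also called BLIMP1, is a zinc finger repressor present in endoderm and in primordial germ cells, which also use SOX17. SOX4 and SOX11 are SoxC factors, found in many progenitor cells and not particular to endoderm.

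The libraries held 11854173 to 37519729 counts. The targeted gene followed its labels: CHD7 stood at 194.9, 194.9 and 189.2 CPM (counts scaled to library size) in wild type, 110.4, 130.5 and 129.2 CPM in heterozygous and 56.08, 42.97 and 55.49 CPM in homozygous libraries. Of 22 other endoderm regulators and markers, all 22 were measured and passed the filter, EOMES among them at 715.4 to 872.3 CPM. The lowest count of any of the 6 genes in a library was 505, for GATA4 in homozygous replicate 1, the shallowest library, with an exact 95% Poisson interval of 461.9 to 551 that covers counting error only. Since these are bulk libraries, fewer cells of a type and less RNA per cell cannot be told apart.

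The 6 genes were present in all 9 libraries at levels that spanned a wide range. Per kilobase of exon, SOX17 led with a mean of 306 CPM per kilobase in wild type and ranked 101 among the 16532 tested genes with a known exon length. GATA6 followed at 181.8 CPM per kilobase and rank 177. SOX4 at 29.98 and PRDM1 at 26.41 CPM per kilobase lay in the middle, and GATA4 at 12.38 and SOX11 at 7.943 CPM per kilobase were lowest. In that order every neighbouring pair was separated in wild type without overlap between libraries, SOX4 (29.67 to 30.14) against PRDM1 (26.06 to 26.98) included. In the mutants SOX4 and PRDM1 were not separated: their levels were 26.2 to 29.92 and 27.41 to 30.08 CPM per kilobase in heterozygous, and 30.6 to 33.49 and 26.65 to 32.36 in homozygous libraries.

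**Figure D1:**
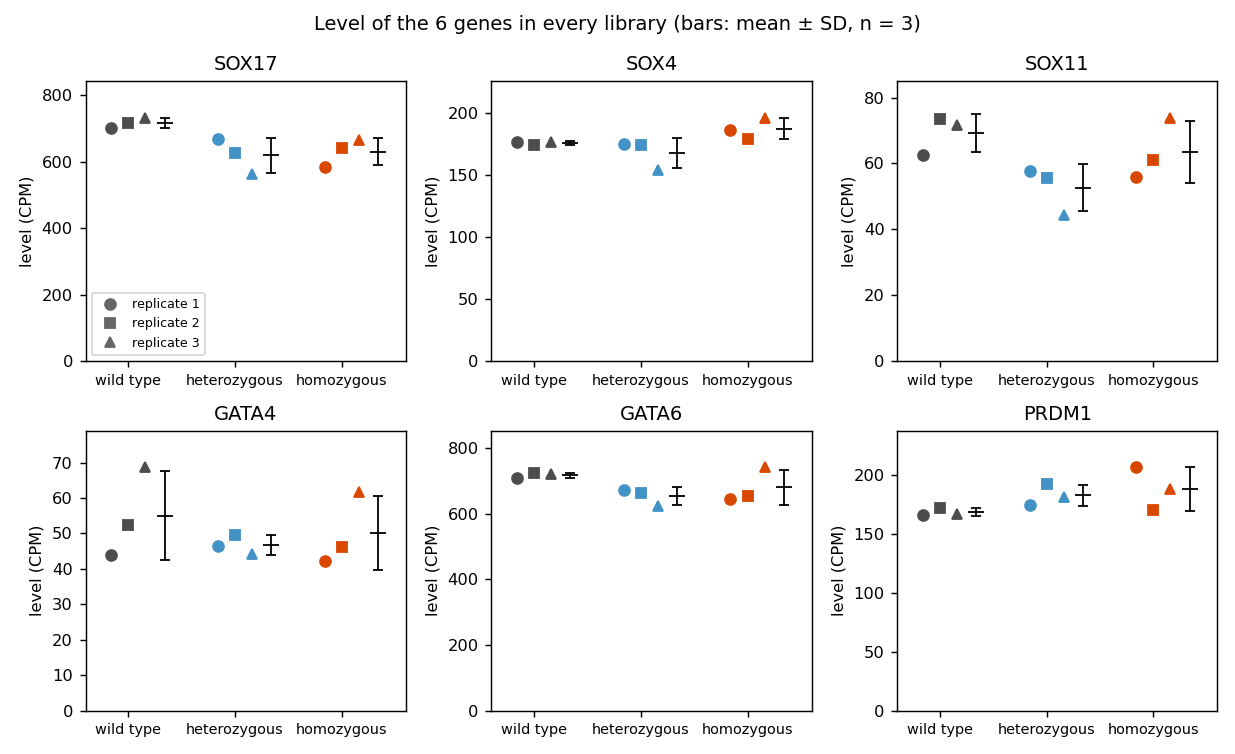
Level of each of the 6 genes (CPM, y axis from 0) in every library by CHD7 genotype, with 1 symbol per replicate number and bars for mean ± SD (n = 3). SOX17 and GATA6 stand at 562.4 to 741.7 CPM in all 9 libraries, and for no gene does the highest library exceed the lowest by more than 1.663-fold.

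None of the 6 genes differed between genotypes at an adjusted p below 0.05. The highest of the 9 libraries was 1.191 times the lowest for GATA6, 1.242 times for PRDM1 and 1.278 times for SOX4. It was 1.302 times the lowest for SOX17, 1.627 times for GATA4 and 1.663 times for SOX11. In homozygous against wild-type cells, edgeR's quasi-likelihood test with Benjamini-Hochberg adjustment called 0 of the 6, where 7.68% of all genes tested were called. In heterozygous against wild-type cells it called 0 of the 6, where 1.86% of all genes were called, and in homozygous against heterozygous cells 0 of the 6 where 2.21% were called. For 6 genes, a count of 0 lies close to each of these shares. DESeq2 and limma-voom also called 0 of the 6 in each comparison. At an unadjusted p below 0.05 there were 1 (SOX17), 2 (SOX17 and SOX11) and 1 (SOX11), where 23.2%, 13.5% and 18.3% of all genes passed. The 2 comparisons with wild type share the 3 wild-type libraries, so their values are given side by side and not counted as separate evidence.

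The 95% interval of each difference says how large a change the libraries leave room for. These intervals are per gene and not widened for the number of genes tested. All 6 lay within a 1.5-fold change in either direction in homozygous against wild type, 5 of 6 did so in heterozygous against wild type, where SOX11 was the exception, and all 6 did so between the mutants. The median log2 fold change of the 6 was -0.10, -0.17 and 0.08 in the 3 comparisons, beside 0.01, 0.00 and 0.01 over all genes tested. With the sign ignored, the median over all genes tested was 0.20, 0.14 and 0.18. All 6 were smaller than this in homozygous against wild type. In heterozygous against wild type SOX17 (-0.21), GATA4 (-0.23) and SOX11 (-0.40) were larger, and SOX4, GATA6 and PRDM1 smaller. Between the mutants only SOX11 (0.27) was larger.

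**Figure D2:**
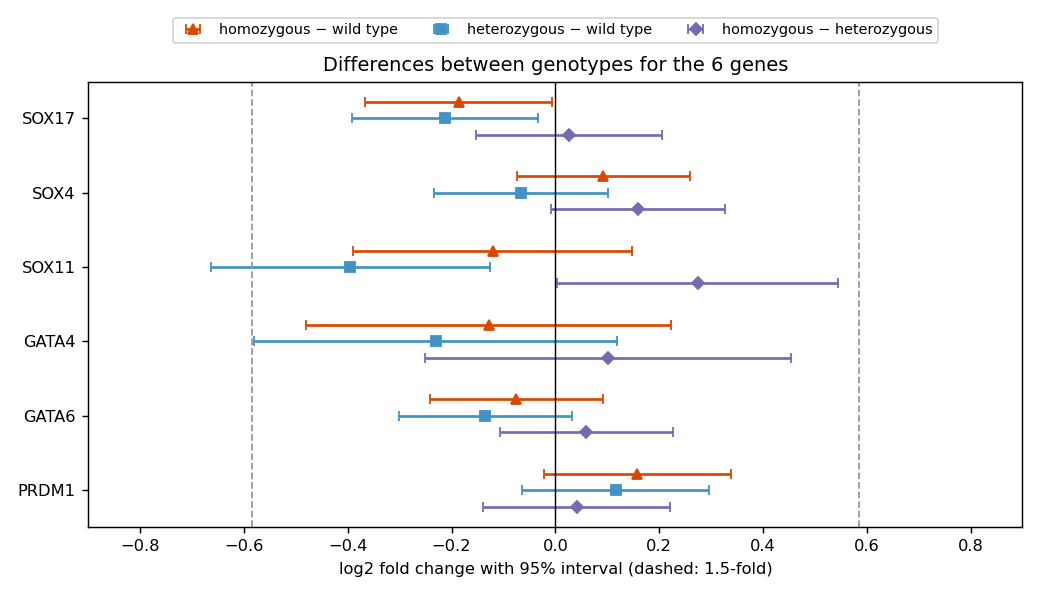
Log2 fold change between genotypes (x axis) with its 95% interval for each of the 6 genes, with 1 symbol and colour per comparison and dashed lines at a 1.5-fold change. Only the heterozygous interval of SOX11, which reaches -0.66, crosses a dashed line, and the intervals of SOX17 in both comparisons with wild type lie just below 0.

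SOX17 (ENSG00000164736; GRCh38 chromosome 8, 54457935 to 54460888, plus strand, 2 exons) was somewhat lower in both mutants. Its level was 702.1, 715.8 and 732.1 CPM in wild type, 666.6, 626.7 and 562.4 CPM in heterozygous and 584.1, 641.7 and 663.2 CPM in homozygous libraries. All 6 mutant libraries lay below all 3 wild-type libraries, and the mutants overlapped each other. The mean was 716.6 ± 15.03 CPM in wild type, 618.6 ± 52.57 in heterozygous and 629.6 ± 40.91 in homozygous cells (SD, n = 3 each). The homozygous difference was -0.19 (log2, SE 0.08), or -12.1% with a 95% interval of -22.4% to -0.493%, and did not pass the adjusted test (edgeR, adjusted p = 0.197). The heterozygous difference was -13.7%, with an interval of -23.8% to -2.26% (edgeR, adjusted p = 0.279). A fall of 1.5-fold lies outside both intervals. Leaving out 1 library gave -0.22 to -0.13 in homozygous and -0.27 to -0.15 in heterozygous cells. The homozygous difference had an unadjusted p below 0.05 in the main fit only narrowly. It lost this without any 1 wild-type library, heterozygous replicate 2 or homozygous replicate 1, and with a replicate block (edgeR).

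GATA6 (ENSG00000141448; chromosome 18, 22169443 to 22202528, plus strand, 6 or 7 exons by transcript) was the steadiest of the 6. It stood at 708.2, 723.7 and 720.0 CPM in wild type, 673.9, 663.3 and 622.6 CPM in heterozygous and 646.2, 654.9 and 741.7 CPM in homozygous libraries. All 3 heterozygous libraries were below wild type, whereas homozygous replicate 3 was the highest of all 9. The heterozygous difference was -0.13 on the log2 scale, with a 95% interval of -0.30 to 0.03 (edgeR, adjusted p = 0.487). The homozygous one was -0.07, with an interval of -0.24 to 0.09 (adjusted p = 0.59).

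GATA4 (ENSG00000136574; chromosome 8, 11676959 to 11760002, plus strand) was far less abundant and varied most between replicates of 1 genotype. Its level was 44.04, 52.28 and 68.67 CPM in wild type, 46.59, 49.66 and 44.08 CPM in heterozygous and 42.21, 46.28 and 61.83 CPM in homozygous libraries. The genotypes overlapped throughout, and the wild-type libraries alone spanned nearly the whole range. The differences from wild type were -0.13 in homozygous (95% interval -0.48 to 0.22) and -0.23 in heterozygous cells (-0.58 to 0.12), with adjusted p = 0.671 and 0.592 (edgeR). Both differences rest largely on 1 library, since without wild-type replicate 3 they were 0.06 in homozygous and -0.04 in heterozygous cells. Per kilobase of exon, GATA6 exceeded GATA4 by a mean of 15.2-fold in wild type, 15.7-fold in heterozygous and 15.6-fold in homozygous libraries, with single libraries between 11.8-fold and 18.1-fold. The ratios of both mutants lay inside the range of the wild-type libraries.

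PRDM1 (ENSG00000057657; chromosome 6, 106086320 to 106109939, plus strand) was the gene whose mutant means lay above wild type in both genotypes. It stood at 166.6, 172.5 and 167.5 CPM in wild type, 175.2, 192.3 and 181.5 CPM in heterozygous and 206.9, 170.3 and 188.2 CPM in homozygous libraries. The heterozygous libraries were all above wild type, and homozygous replicate 2 fell inside the wild-type range. The differences were 0.16 in homozygous (95% interval -0.02 to 0.34) and 0.12 in heterozygous cells (-0.06 to 0.30), with adjusted p = 0.279 and 0.605 (edgeR). Neither passed the adjusted test.

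SOX4 (ENSG00000124766; chromosome 6, 21592768 to 21598619, plus strand, 1 exon) was nearly constant in wild type, at 176.3, 173.6 and 176.4 CPM. It stood at 175.1, 174.3 and 153.4 CPM in heterozygous and 186.3, 179.1 and 196.0 CPM in homozygous libraries. The homozygous libraries were above all others. Their difference was small, 0.09 against wild type (95% interval -0.07 to 0.26; edgeR, adjusted p = 0.499) and 0.16 against heterozygous cells (-0.01 to 0.33; adjusted p = 0.297).

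SOX11 (ENSG00000176887; chromosome 2, 5692667 to 5701385, plus strand, 1 exon) showed the largest difference of the 6. Its level was 62.52, 73.5 and 71.75 CPM in wild type, 57.79, 55.54 and 44.46 CPM in heterozygous and 55.83, 60.91 and 73.94 CPM in homozygous libraries. The heterozygous libraries lay below wild type, and the homozygous libraries spanned both. The heterozygous difference was -0.40 (SE 0.12), or -24.0%, with an interval on the log2 scale of -0.66 to -0.13 (edgeR, adjusted p = 0.162). Homozygous cells differed from wild type by -0.12 (-0.39 to 0.15; adjusted p = 0.592) and from heterozygous cells by 0.27 (0.00 to 0.55; adjusted p = 0.268). Per kilobase of exon, SOX4 exceeded SOX11 by 3.52-fold to 4.2-fold in wild type, 4.51-fold to 5.14-fold in heterozygous and 3.95-fold to 4.97-fold in homozygous libraries, so the heterozygous ratios lay above wild type and the homozygous ratios overlapped both.

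Counted by library order, 2 of the 6 genes had no overlap between homozygous and wild-type libraries (SOX4 higher, SOX17 lower), where 28.9% of all genes tested had none. Between heterozygous and wild type the count was 4 of 6 (PRDM1 higher; GATA6, SOX17 and SOX11 lower), where 22.2% of all genes had none. Between the mutants it was 1 of 6 (SOX4), where 19.5% had none. As a share of the mean, the wild-type SD was 0.8888% for SOX4, 1.129% for GATA6, 1.883% for PRDM1 and 2.097% for SOX17. It was 8.518% for SOX11 and 22.8% for GATA4. SOX4, with the smallest share, overlapped between heterozygous and wild-type libraries, and SOX11 did not. Some libraries stood at the end of the range for several of the 6. Heterozygous replicate 3 was the lowest of the 9 for SOX17, SOX4, SOX11 and GATA6, and it was the lowest library for 20.3% of all genes tested. Homozygous replicate 3 was the highest for SOX4, SOX11 and GATA6, as it was for 12.4% of all genes. The part of these libraries in the differences was not tested beyond leaving each out, which called none of the 6.

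The promoter windows of PRDM1 and GATA6 are shown because GATA and SOX factors, the other genes described here, bind short motifs that can be looked for in them. RefSeq (GRCh38.p14) windows, 300 bases around a gene start, were at hand for SOX4 (1), GATA6 (1) and PRDM1 (2). Each was searched on both strands for GATAA (GATA factors; reverse TTATC) and for ACAAT (reverse ATTGT) and ACAAAG (reverse CTTTGT), which SOX factors bind. The bases upstream of the annotated gene start are printed on the plus strand, with matches in capitals. They come from chr6:106086086-106086319 for PRDM1 and chr18:22169339-22169442 for GATA6.
PRDM1: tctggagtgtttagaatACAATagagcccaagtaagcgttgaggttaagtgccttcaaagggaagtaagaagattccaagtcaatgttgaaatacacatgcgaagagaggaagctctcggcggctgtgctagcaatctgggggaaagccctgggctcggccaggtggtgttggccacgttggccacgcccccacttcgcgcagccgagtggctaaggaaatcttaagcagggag
GATA6: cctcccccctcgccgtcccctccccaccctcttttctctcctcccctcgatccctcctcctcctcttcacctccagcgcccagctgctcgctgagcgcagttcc
The PRDM1 stretch holds ACAAT once, and the rest of its window, not shown, holds ACAAAG once. No match was found in the GATA6 window or in the second PRDM1 window, and the SOX4 window, not shown, holds GATAA once. The SOX4 window (chr6:21593501-21593800) and the second PRDM1 window (chr6:106098691-106098990) lie inside the annotated genes, downstream of the gene starts given above. The GATAA match is thus not upstream of the SOX4 gene start given above, which is that of GENCODE. Its window was drawn around a RefSeq start, and the annotations differ there. Of 35116 promoter windows, 22.7% hold GATAA, 27.4% ACAAT and 16.1% ACAAAG, and no matches overlapped. The GATA6 window is rich in G and C, at 66.7% against a median of 58.7%, with 25 CpG against a median of 14. A match is a run of letters, not a bound site, and these libraries measure no binding.

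GATA6-AS1 (ENSG00000266010; chromosome 18, 22164886 to 22169878, minus strand) is an antisense RNA gene that starts 435 bases inside GATA6 and is read the other way. It stood at 93.04, 87.87 and 89.81 CPM in wild type, 94.61, 83.13 and 91.89 CPM in heterozygous and 99.88, 122.8 and 107.5 CPM in homozygous libraries. All 3 homozygous libraries lay above the other 6. The homozygous difference from wild type was 0.29 (SE 0.09; 95% interval 0.09 to 0.48), which did not pass (edgeR, adjusted p = 0.0738; 0.0513 to 1 over the alternatives). The ratio of GATA6 to GATA6-AS1 per kilobase was 6.12 to 6.62 in wild type, 5.45 to 6.42 in heterozygous and 4.29 to 5.55 in homozygous libraries, so the homozygous ratios lay below all wild-type ratios. No source used here says whether reads were counted by strand, so reads of the pair cannot be told apart where the genes overlap. Of 26 genes with a row within 300000 bases of the 6, 10 were tested, and edgeR called 0 of them in any comparison. Of all genes tested, 7.68% were called in homozygous and 1.86% in heterozygous cells against wild type, and 2.21% between the mutants. For 10 genes, a count of 0 lies close to each of these shares.

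**Figure D3:**
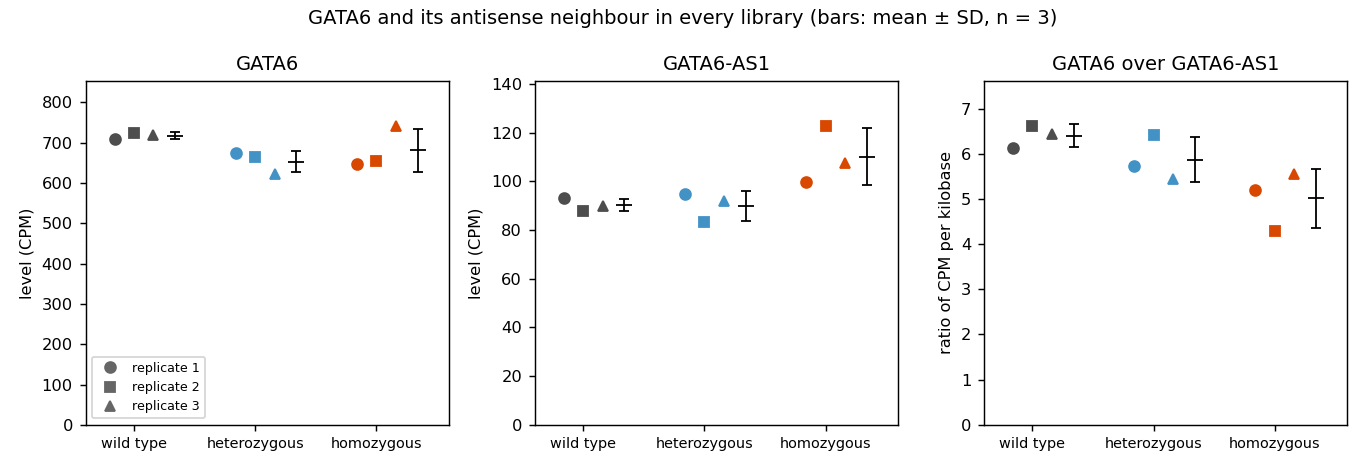
Level of GATA6 and of GATA6-AS1 (CPM, y axes from 0) and the ratio of their levels per kilobase of exon in every library by genotype, with bars for mean ± SD (n = 3). GATA6-AS1 reaches 99.88 to 122.8 CPM in homozygous libraries and 83.13 to 94.61 CPM in the others, while GATA6 overlaps between homozygous and wild-type libraries.

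Several relatives of the 6 genes, all less abundant in CPM than SOX17, GATA6, SOX4 and PRDM1, did change. Over all genes tested, 3.5% rose and 4.18% fell in homozygous against wild-type cells, 0.82% and 1.04% in heterozygous against wild type, and 0.986% and 1.22% in homozygous against heterozygous. Of 16 other SOX genes, 12 were tested, and 1 rose and 2 fell in homozygous against wild-type cells (median log2 fold change -0.06). SOX18, the other SoxF gene measured above the filter and known from endothelium, rose from 5.579, 5.805 and 5.605 CPM in wild type to 10.78, 13.47 and 13.96 CPM in homozygous libraries, with 6.837, 6.687 and 4.959 CPM in heterozygous ones. No library of the other genotypes reached the homozygous range, and the fold change was 1.18 on the log2 scale (SE 0.16; edgeR, adjusted p = 0.000514). Even so, SOX17 exceeded SOX18 per kilobase by 37.8-fold to 43.1-fold in homozygous libraries and by 98.1-fold to 104-fold in wild type. SOX7, the third SoxF gene, was at 0.06511 CPM or less in every library.

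SOX5, a SoxD factor known from cartilage, fell in both mutants. It went from 23.76, 24.93 and 24.33 CPM in wild type to 12.92, 13.74 and 15.81 CPM in heterozygous and 11.53, 8.773 and 14.81 CPM in homozygous libraries. The change was -1.06 in homozygous (edgeR, adjusted p = 0.00144) and -0.78 in heterozygous cells (adjusted p = 0.0253). Leaving out wild-type replicate 2 (adjusted p = 0.134) or 3 (0.113), or heterozygous replicate 1 (0.113) or 2 (0.15), ended the heterozygous call. SOX21, a SoxB factor, fell by 1.06 in homozygous cells (adjusted p = 0.0152), which did not hold with 1 library fewer: wild-type replicate 1 (0.0591), homozygous replicate 1 (0.0629) or homozygous replicate 2 (0.0729). SOX8, a SoxE factor, fell by 0.92 in heterozygous cells (adjusted p = 0.0371), so 2 of 12 fell and 0 rose there (median -0.20). It was not called after leaving out wild-type replicate 1 (0.0688) or 3 (0.222), heterozygous replicate 1 (0.149), 2 (0.172) or 3 (0.0548), or homozygous replicate 1 (0.054). Between the mutants, only SOX18 was called of the 12 (median 0.05).

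SOX12, the third SoxC gene, stood at 252.0, 268.7 and 258.9 CPM in wild type, 235.8, 224.2 and 265.5 CPM in heterozygous and 253.1, 282.9 and 268.2 CPM in homozygous libraries. The genotypes overlapped, and its difference from wild type was 0.05 in homozygous and -0.10 in heterozygous cells, neither called. SOX2, a pluripotency factor, stood at 7.108, 4.067 and 3.363 CPM in wild type, 19.14, 15.93 and 5.595 CPM in heterozygous and 5.934, 6.389 and 0.8476 CPM in homozygous libraries. Heterozygous replicates 1 and 2 were the 2 highest of the 9, and the heterozygous difference of 1.47 was not called (edgeR, adjusted p = 0.226).

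Among 7 other GATA genes and FOG cofactors, 4 were tested, and 2 rose and 0 fell in homozygous against wild-type cells (median 0.22). GATA3, known from trophoblast and T cells, stood at 1.1, 1.279 and 1.038 CPM in wild type, 1.27, 1.023 and 0.9749 CPM in heterozygous and 3.176, 3.046 and 2.643 CPM in homozygous libraries. Its level was thus clearly separated but low, with a rise of 1.36 against wild type (edgeR, adjusted p = 0.00233) and of 1.42 against heterozygous cells (adjusted p = 0.00553). ZFPM1, or FOG1, a cofactor that binds GATA proteins, rose by 0.58 and 0.68 in the same comparisons (adjusted p = 0.0438 and 0.0456). Against wild type its call was lost without wild-type replicate 1 (0.0958), 2 (0.147) or 3 (0.141), heterozygous replicate 2 (0.0699) or homozygous replicate 2 (0.188). Against heterozygous cells it was lost without any 1 of the libraries other than heterozygous replicate 1 and homozygous replicate 1 (0.0636 to 0.164). GATA5, the closest relative of GATA4 and GATA6, and GATA2 were at 0.1953 CPM or less in every library. None of the 4 was called in heterozygous against wild-type cells (median -0.09).

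Of 15 other PRDM genes, 9 were tested, and 1 fell and 0 rose in homozygous against wild-type cells (median 0.02). That gene, MECOM, a PRDM family factor known from blood stem cells, stood at 4.613, 4.821 and 4.733 CPM in wild type, 1.693, 2.229 and 2.458 CPM in heterozygous and 1.087, 0.9269 and 2.343 CPM in homozygous libraries. Both mutants lay below wild type in every library, and the fall of 1.70 in homozygous cells passed (edgeR, adjusted p = 0.00336), while the heterozygous difference of -1.16 did not (adjusted p = 0.0541). None of the 9 was called in heterozygous against wild type (median -0.02) or between the mutants (median -0.01).

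**Figure D4:**
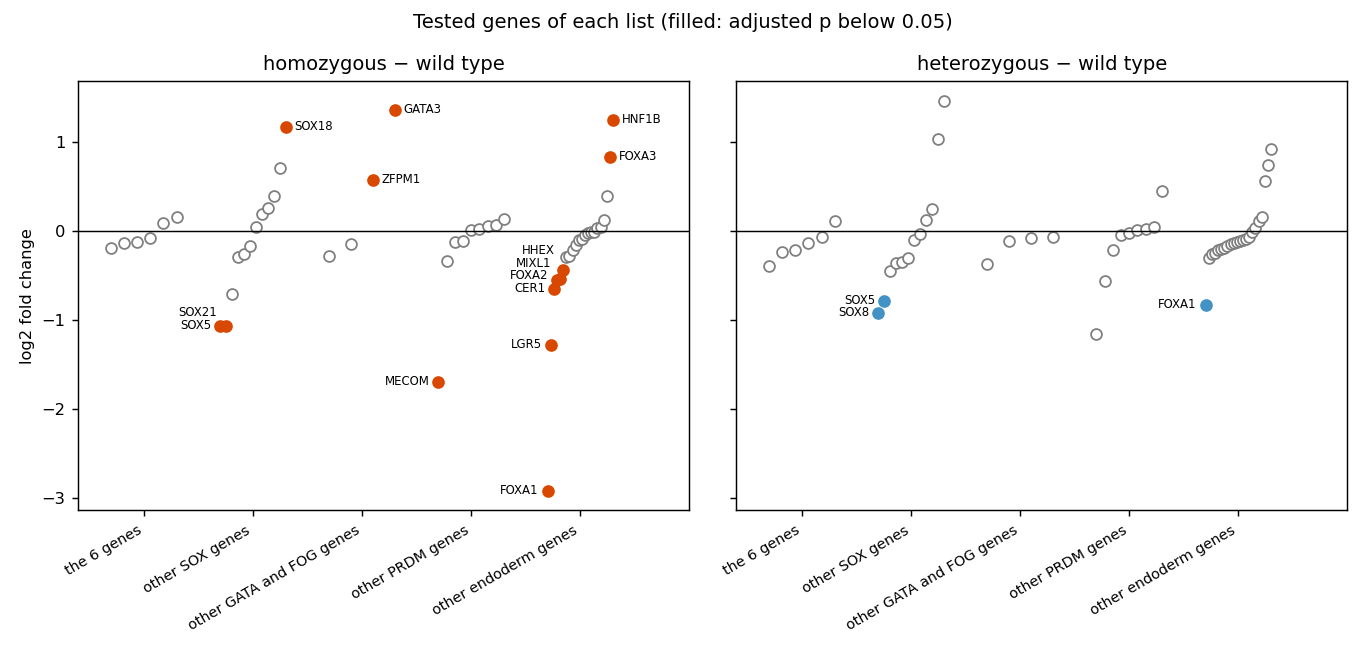
Log2 fold change (y axis) of each tested gene in the list of 6, in 3 lists of relatives and in the list of other endoderm genes, for homozygous and for heterozygous against wild type, with called genes filled and named. The 6 genes lie between -0.40 and 0.16 in these comparisons, while SOX18 reaches 1.18, MECOM -1.70 and FOXA1 -2.92.

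Several other endoderm genes changed. Of the 22, 6 fell and 2 rose in homozygous against wild-type cells (median -0.09), 1 fell in heterozygous against wild type (median -0.11) and 3 fell between the mutants (median -0.10). An unadjusted p below 0.05 (edgeR) was found for 12, 9 and 8 of the 22 in these comparisons. The shares over all genes were 23.2%, 13.5% and 18.3%. The summed level of the 22 was 22279 to 22773 CPM in wild type, 19977 to 20204 in heterozygous and 18690 to 19850 in homozygous libraries, without overlap between genotypes. CER1 had the largest share of it, with means of 7245, 6124 and 4630 CPM. The part of this sum in the levels of the 6 genes was not tested. FOXA1, a pioneer factor of endoderm and its organs, went from 26.26, 16.86 and 18.81 CPM in wild type to 10.91, 13.3 and 10.72 CPM in heterozygous and 2.257, 2.781 and 2.992 CPM in homozygous libraries, with no overlap between any genotypes. Its fall was 2.92 on the log2 scale in homozygous cells (edgeR, adjusted p = 2.16e-06), beside the -0.19 of SOX17. Its relative FOXA2 fell by 0.55 (adjusted p = 0.00303), the homeobox factor MIXL1 by 0.54 (adjusted p = 0.00192) and the secreted Nodal antagonist CER1 by 0.65 (adjusted p = 0.00257). The heterozygous fall of FOXA1 was 0.83 (adjusted p = 0.0266), no longer called after leaving out wild-type replicate 1 (0.0677) or 3 (0.0688) or heterozygous replicate 1 (0.113), 2 (0.0597) or 3 (0.0749).

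Of 20 genes of the Nodal and Activin pathway, 19 were tested, and 3 fell and 0 rose in homozygous against wild-type cells (median -0.08). The calls of SMAD3 and TDGF1 were not firm. SMAD3, a transducer, fell by 0.72 (edgeR, adjusted p = 0.0274) and lost its call without wild-type replicate 1 (0.0518), 2 (0.1) or 3 (0.0924), heterozygous replicate 2 (0.0502) or homozygous replicate 1 (0.11) or 2 (0.0927). TDGF1, the co-receptor of Nodal, fell by 0.25 (adjusted p = 0.0494) and lost its call without any 1 library other than heterozygous replicate 3 (0.0622 to 0.198) and under either other edgeR scaling (0.0539 and 0.0901). edgeR called 0 of the 19 in the other comparisons, with medians of -0.01 and 0.00. An unadjusted p below 0.05 was found for 3 and 4 of them, where 13.5% and 18.3% of all genes had one.

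Markers of other cell types that use these factors were also read. The summed level of 15 primordial germ cell markers, of which 13 have a row, was 439.7 to 454.3 CPM in wild type, 497.1 to 546.4 in heterozygous and 466.4 to 524.4 in homozygous libraries. KIT and ALPL carried most of that sum: KIT had means of 251.1, 272.3 and 250.6 CPM in wild type, heterozygous and homozygous cells, and ALPL stood at 143.7 to 169.8, 164.2 to 216.3 and 140.5 to 220.9 CPM. Neither was called, and their libraries overlapped between mutants and wild type. KIT also stands in the list of other endoderm genes, so this sum does not stand for germ cells alone. Of the list's genes, 8 were tested (medians 0.20, 0.26 and -0.08 in the 3 comparisons). TFAP2C alone rose in homozygous cells against either other genotype. In heterozygous against wild type 0 were called, and 4 of the 8 had an unadjusted p below 0.05, beside 13.5% of all genes. DAZL, DPPA3, DPPA5 and UTF1, known from germ and naive cells, were under 1 CPM in every library, while PRDM14 had a mean of 19.56 to 19.88 CPM in each genotype. The part of such cells in the level of PRDM1 or SOX17 was not tested.

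The 17 primitive and visceral endoderm markers, which share SOX17, GATA4 and GATA6 with definitive endoderm, summed to 2285 to 2566 CPM in wild type, 2249 to 2426 in heterozygous and 2147 to 2881 in homozygous libraries. The sums overlapped between all genotypes, and SPARC, COL4A1 and COL4A2 were the most abundant genes in them. Of 15 tested, HNF4A, APOA2 and NID2 rose and 0 fell in homozygous against wild type (median 0.04). APOA2 rose in heterozygous against wild type (median of the list -0.11) and HNF4A between the mutants (median 0.215). The heterozygous call of APOA2 ended without wild-type replicate 2 (adjusted p = 0.205, edgeR) or 3 (0.197), heterozygous replicate 1 (0.101), 2 (0.0668) or 3 (0.108), or homozygous replicate 1 (0.0577). AFP was under 1 CPM throughout.

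Cardiac and other mesoderm markers (7 of 17 tested), a tissue where GATA4 is also used, summed to 133.9 to 204.9 CPM in wild type, 122.6 to 124.8 in heterozygous and 137.3 to 207.8 in homozygous libraries. Most of the sum was MYL7, at a mean of 115.1, 79.77 and 137.7 CPM, and KDR, at 48.58, 33.62 and 23.5 CPM. Within wild type and within homozygous libraries the lowest and highest sums fell in the same libraries as the lowest and highest GATA4. In heterozygous libraries they did not: replicate 2, with the highest GATA4, had the lowest sum. In heterozygous against wild type 0 were called (median -0.53), and 2 of 7 had an unadjusted p below 0.05, beside 13.5% of all genes. KDR fell and TBX20 rose in homozygous against wild type (median 0.26), and MYL7 rose between the mutants (median 0.16). Both rises were lost in most fits with 1 library fewer. TBX20 was not called without any 1 library other than heterozygous replicate 3 and homozygous replicate 2 (adjusted p = 0.0523 to 0.15, edgeR), nor by limma-voom (0.0906). MYL7 was not called without wild-type replicate 2 (0.0605), any 1 heterozygous library (0.0604 to 0.15), or homozygous replicate 2 (0.0887) or 3 (0.0819). The part of such cells in the GATA4 level was not tested.

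Endothelial markers (8 of 14 tested) summed to 501.5 to 524.5 CPM in wild type, 436.2 to 618.9 in heterozygous and 554 to 674.8 in homozygous libraries. VWF made up most of the sum, with means of 442.8, 476.6 and 578.7 CPM, and was not called (edgeR, adjusted p = 0.077 in homozygous against wild type). SOX18 and CLDN5 rose and KDR and TEK fell in homozygous against wild type (median 0.40), TEK from a mean of 6.698 to 2.159 CPM. None was called in heterozygous against wild type (median -0.04). An unadjusted p below 0.05 was found there for 2 of 8, beside 13.5% of all genes. SOX18 and CLDN5 rose between the mutants (median 0.40). That last call of CLDN5 ended without heterozygous replicate 2 (adjusted p = 0.0856) or 3 (0.0548) or homozygous replicate 2 (0.0711). PECAM1, ERG, ESAM, FLI1, SOX7 and TIE1 were under 1 CPM in every library, so the list's members differed widely in level and direction. The part of endothelial cells in the SOX18 level was not tested.

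Trophoblast and amnion markers (3 of 12 tested) summed to 10.03 to 12.96 CPM in wild type, 13.41 to 13.99 in heterozygous and 23.57 to 31.41 in homozygous libraries. TFAP2C made up most of that sum, and TFAP2C and GATA3 rose in homozygous cells against either other genotype (medians 1.23 and 1.42). In heterozygous against wild type 0 were called (median -0.06), and 1 of 3 had an unadjusted p below 0.05, beside 13.5% of all genes. The list's GATA2, HAND1, KRT7, TFAP2A and TP63 stayed under 1 CPM. Neural markers (11 of 19 tested), from a tissue where SOX4 and SOX11 are well known, summed to 959.2 to 1012, 872.8 to 997.7 and 937.1 to 1019 CPM, mostly NES, ZIC2 and TEAD2. STMN2 rose in all 3 comparisons and OTX1 in both with wild type, 0 fell, and the medians were -0.04, -0.07 and 0.04. The heterozygous call of OTX1 ended without any 1 wild-type or heterozygous library (edgeR, adjusted p = 0.0548 to 0.169). PAX6 and SOX1 were under 1 CPM throughout.

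Pluripotency markers (13 of 14 tested) differed among themselves in direction. They summed to 4088 to 4238 CPM in wild type, 3931 to 4146 in heterozygous and 3670 to 3922 in homozygous libraries, and LIN28A, at means of 2312, 1968 and 2001 CPM, made up the largest share. The median log2 fold change pointed the other way from the sum in heterozygous against wild-type cells, at 0.25, and was -0.08 in homozygous against wild type and -0.25 between the mutants. POU5F1, the pluripotency factor OCT4, had means of 69.59, 158.9 and 89.98 CPM, and SOX2 of 4.846, 13.56 and 4.39 CPM. edgeR called 0 in either comparison with wild type. In homozygous against wild type 3 of 13 had an unadjusted p below 0.05, beside 23.2% of all genes. In heterozygous against wild type 8 of 13 did, beside 13.5% of all genes. Called as lower in homozygous than in heterozygous cells were 2, NANOG and TERF1. Leaving out wild-type replicate 2 ended both calls (adjusted p = 0.0631 and 0.0506). NANOG was also lost without wild-type replicate 1 (0.0509) or 3 (0.0659), heterozygous replicate 1 (0.0876) or 2 (0.139), or homozygous replicate 1 (0.0699). TERF1 was also lost without heterozygous replicate 2 (0.0926) or homozygous replicate 2 (0.0564) or 3 (0.0533). The part of remaining stem cells in the levels of the 6 genes was not tested.

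The genes whose pattern over the 9 libraries was nearest to each of the 6 were found by the root mean square difference of centred log2 CPM, among 10827 genes with a mean of at least 5 CPM. For SOX17 these were IRF2BP2 at 0.0333, GMPPB at 0.0348 and FBXW5 at 0.0391, for GATA6 MAP2K1 at 0.0301, RABGEF1P1 at 0.0308 and DNM2 at 0.0337, and for SOX4 they included HDAC6 at 0.0263 and FAM171A1 at 0.0307. For PRDM1 they were TMEM108 at 0.0314, GTF2IP4 at 0.0401 and LAMP2 at 0.0445, and for SOX11 ARMC5 at 0.0548, IER5 at 0.0601 and AP5Z1 at 0.0623. GATA4, the most variable within a genotype, had its nearest patterns farther off, at 0.102 for RPP14, 0.103 for PARVA and 0.108 for RUSC2. Among the 6 themselves SOX17 and GATA6 were closest at 0.0663 and SOX11 and PRDM1 farthest at 0.274. None of the 6 was among the nearest 3 of another. All distances share the same 9 libraries and are a description.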

How the data were processed

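Total RNA of definitive endoderm from H9 cells was sequenced in 9 libraries, 3 per CHD7 genotype, with genotype and replicate number taken from the titles. What the authors deposited is 1 table of unnormalized counts, with Ensembl IDs in rows and 1 column per library. The submitters' processing notes list hg38 as the build and name HTSeq, HISAT2, SAMtools, Trimmomatic and FastQC, with no version or role. Strand setting, gene annotation and any selection of rows: not given in the sources used here. Symbols matched 21313 of 26240 IDs, and positions and exon lengths come from GENCODE on GRCh38.

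In R 4.3.3 with edgeR 4.0.16, filterByExpr by genotype left 16837 genes and removed 9403, of which 264 had no count in any library. Counts were scaled with TMM (0.973 to 1.01) and 1 quasi-likelihood fit took in all 9 libraries, with genotype alone as factor (common biological coefficient of variation 0.121). Tests were two-sided, adjusted with the Benjamini-Hochberg method over all genes tested, and called below 0.05. An SE is the size of the log2 fold change over the square root of its F. CPM values use the TMM-adjusted library size, and a level per kilobase divides by the union of exons. The procedure was tested on simulated data. Replicates differed by more than counting noise (chi-square per degree of freedom of 2.55 or more), so none was taken as a duplicate.

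The 6 genes and the 12 other lists were chosen with earlier results of these data known, and 15 symbols stand in more than 1 list. Named besides the 6 are up to 4 called genes of each list in homozygous against wild type and up to 2 in the other comparisons, lowest adjusted p first, and for each of the 6 the 3 genes nearest in pattern. SOX2, SOX7, SOX12, EOMES, GATA2, GATA5, the markers under 1 CPM and the uncalled markers of other cell types were named after their values were seen. Neighbours were taken by position. Some of the genes that these rules name are not reported here.

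The alternatives were leaving out each library, both other edgeR scalings (RLE and upper quartile), a 1 CPM filter or none, limma-voom (limma 3.58.1), DESeq2 1.42.0, glmTreat with a 1.5-fold minimum, a replicate block, and fits on only the 6 libraries under comparison. Counting libraries without overlap under other scalings was added after seeing the data.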

Additional observations from a re-analysis of the deposited data

How the results depend on the processing

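Over 18 alternatives and 3 comparisons, 318 of 324 values for the 6 genes kept their direction, none was called, and the lowest adjusted p was 0.0668, for SOX11 in heterozygous against wild type without homozygous replicate 3. The 6 that turned came from leaving out 1 library. GATA4 in homozygous against wild type ranged from -0.3056 to 0.0572 over the libraries left out. Against wild type, the other ranges in which the size moved by over 1.5 times at an end were -0.2414 to -0.036 for SOX11, -0.139 to -0.0353 for GATA6, 0.0598 to 0.1232 for SOX4 and 0.0898 to 0.2247 for PRDM1 in homozygous cells, and -0.3697 to -0.0419 for GATA4 and -0.0986 to -0.0075 for SOX4 in heterozygous cells. Between the mutants the ranges that crossed 0 were -0.0344 to 0.0807 for SOX17, -0.0774 to 0.2067 for GATA4, -0.0066 to 0.0968 for GATA6 and -0.0293 to 0.1082 for PRDM1. GATA6-AS1 in heterozygous against wild type, at -0.01, turned to 0.0128 with upper quartile scaling and to 0.0037 with the 1 CPM filter, and ranged from -0.0445 to 0.0539 over the libraries left out. Under upper quartile scaling 3 of the 6, with PRDM1 added, had no overlap between homozygous and wild-type libraries. The share of all genes without overlap under that scaling is not reported here, so no result is read from this count. With TMM that share was 28.9%. The median log2 fold change over all genes tested in this comparison was 0.0541 with upper quartile scaling and 0.0101 with TMM. Of all genes, 1293, 313 and 372 were called in homozygous and in heterozygous cells against wild type and between the mutants. The test against a 1.5-fold change called 281, 89 and 67. The fit of the 6 libraries compared called 604 in heterozygous against wild type and 177 between the mutants, and DESeq2 called 560 and 819. Leaving out 1 library gave 651 to 2118, 130 to 624 and 141 to 377. Same-numbered libraries did not deviate together in every pair (correlations of 0.245, -0.195 and 0.24 for homozygous and wild type), so the numbers were not taken as a pairing. The replicate block called 1503, 492 and 461 genes and 0 of the 6. The cause of these shifts was not tested, and the smaller fits also held fewer libraries.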

Other observations

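Within the 300000 bases on either side of the 6 genes, the long non-coding RNA gene CASC15, downstream of SOX4, was lower in every mutant library than in every wild-type library. It stood at 34.63, 35.29 and 32.18 CPM in wild type, 26.47, 29.19 and 30.69 CPM in heterozygous and 29.84, 28.9 and 29.72 CPM in homozygous libraries. The difference was -0.21 in homozygous and -0.24 in heterozygous cells and was not called (edgeR, adjusted p = 0.187 and 0.245). It was picked after its values were seen. SOX4 itself stood highest in the homozygous libraries.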
